A study of Mus musculus with 6 samples.

Results

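The Krüppel-like factors examined here were 8 genes of the Klf family, Klf2, Klf3, Klf4, Klf6, Klf9, Klf10, Klf13 and Klf15, in ovarian secondary follicles of old and young mice. Their members were the probe sets whose only annotated gene symbol was one of these genes, which gave 27 of the 34958 probe sets with a single symbol. Klf2, Klf10 and Klf15 had 1 probe set each, Klf4 had 2, Klf13 had 3, Klf6 had 5, and Klf3 and Klf9 had 7 each. Klf2, Klf4, Klf6 and Klf10 were taken as the fast-responding class, with 9 probe sets, and Klf3, Klf9, Klf13 and Klf15 as the constitutive class, with 18.

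RNA was extracted from secondary follicles of female, specific pathogen-free C57BL/6J mice, 3 samples from old mice at 32 weeks and 3 from young mice at 9 weeks, with no treatment or engineered allele named for either group. The follicles were freed mechanically with needles and chosen by size and by an intact basal membrane around a central oocyte. A sample thus pools the oocyte with the granulosa cells and any cells left on the outside. Each sample was read on 1 Affymetrix 3' expression array, and values are log2 of the RMA intensity that the authors deposited. A difference of 1 on this scale is a fold of 2. The sources used here do not say how many mice each sample came from. The p-values therefore describe the spread among these samples alone, with a median SD within groups of 0.0997. The marker genes of oocytes and of granulosa cells averaged above 10 in every sample, where the median probe set of an array was at 5.34 to 5.40.

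Krüppel-like factors are transcription factors that bind GC-rich and CACCC sequences through a conserved set of zinc fingers at the C-terminal end of the protein, the same sites that Sp1 and its relatives read. Klf2, Klf4, Klf6 and Klf10 belong to the genes that cells switch on within a short time of a stimulus such as serum, shear stress, injury or a growth factor, as Fos and Egr1 do. Klf3 and Klf13 are expressed more steadily, while Klf9 and Klf15 can be induced by glucocorticoid and other hormones. Some members recruit co-repressors, CtBP in the case of Klf3 and Sin3A in the case of Klf9, Klf10 and Klf13, whereas Klf2, Klf4 and Klf6 can also activate transcription.

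The promoters of the fast-responding members Klf2, Klf4 and Klf6 are shown because Klf2 and Klf4 rose in the old samples and Klf6 differed between its own probe sets. They were taken from RefSeq on GRCm38.p6, whose table matched 7 of the 8 genes, and each is the 250 bases before the transcript start, read 5' to 3' on the strand of the gene, with capitals on the CRE core (TGACG), the GC box (GGGCGG), the CCAAT box (CCAAT) and the MEF2 site on either strand. Klf2 is at chr8:72318812-72319061 on the plus strand, Klf4 at chr4:55532476-55532725 on the minus strand and Klf6 at chr13:5861239-5861488 on the plus strand.
Klf2: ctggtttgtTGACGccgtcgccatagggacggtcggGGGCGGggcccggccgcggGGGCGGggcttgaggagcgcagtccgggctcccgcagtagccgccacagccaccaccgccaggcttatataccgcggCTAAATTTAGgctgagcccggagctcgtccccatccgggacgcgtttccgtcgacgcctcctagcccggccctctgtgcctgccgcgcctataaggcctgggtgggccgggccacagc
Klf4: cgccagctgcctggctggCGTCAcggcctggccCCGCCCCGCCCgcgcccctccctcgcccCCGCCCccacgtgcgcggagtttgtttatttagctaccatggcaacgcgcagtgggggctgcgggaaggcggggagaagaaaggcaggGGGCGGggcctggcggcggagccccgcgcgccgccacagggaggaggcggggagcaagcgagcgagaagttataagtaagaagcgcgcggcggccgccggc
Klf6: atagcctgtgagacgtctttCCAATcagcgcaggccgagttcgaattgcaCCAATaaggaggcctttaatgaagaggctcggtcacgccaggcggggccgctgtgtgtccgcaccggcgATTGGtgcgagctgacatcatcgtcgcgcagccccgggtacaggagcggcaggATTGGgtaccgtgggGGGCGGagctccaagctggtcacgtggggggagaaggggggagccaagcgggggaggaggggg
The Klf2 window held a MEF2 site, which 2.9% of 32851 promoter windows of the same length held and no other window of the 7 members did. MEF2 proteins are known to activate Klf2 in endothelial cells. The Klf4 window held 4 GC boxes and the Klf2 window 2, and a GC box was in 6 of the 7 member windows, against 32.7% of all windows. The CRE core was in 5 of the 7, against 17.8%, and the CCAAT box in 4, against 33.8%, of which the Klf6 window held 4 copies. The full CRE (TGACGTCA), which contains the CRE core, the CArG box of serum response factor, the TATA box (TATAAA) and the glucocorticoid response element were each in 0 of the 7 windows, against 1.5%, 1.5% and 12.4% of all windows for the first 3 and 3 of 32851 for the last. The AP-1 site (TGANTCA) was in 1 of the 7, that of Klf9, against 6.7%, and the CACCC box (CCACCC) in 3, against 28.1%. The member windows had a G and C content of 59.6% to 78.4%, against a median of 52.4% over all windows, and these matches are a description of the letters only. The Klf15 window, which begins at chr6:90462326 on the plus strand, lies inside the gene, whose first base is at 90461043.

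Klf4 and Klf2 rose in secondary follicles from old mouse ovaries, and they were the 2 genes among the 8 that passed both thresholds. A probe set counted as called where limma, fitted over all 34958 probe sets, gave a fold of 2 or more with a Benjamini-Hochberg adjusted p no greater than 0.05. Of the 27 member probe sets, 3 were called higher and 0 lower, in a fit that called 1.02% of all probe sets, 0.466% higher and 0.555% lower. At the adjusted p alone, whatever the fold, 6 of the 27 were higher, against 8.95% of all probe sets, and 4 were lower, against 13.9%. With the raw p under 0.05 in limma, 7 of the 27 were higher and 4 lower, where 5403 and 7254 of the 34958 probe sets were. SAM, the method that the study names, gave the same 3 higher and 0 lower. Counting each gene by its brightest probe set, the one with the highest mean over the 6 arrays, 2 of the 8 genes were called higher and 0 lower, where 0.764% of 18194 genes were called, 0.638% higher and 0.126% lower.

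Klf4, a factor best known from pluripotent cells and from epithelial and endothelial differentiation, read 7.41, 7.30 and 7.43 in the old samples at its brightest probe set (1417394_at), against 6.15, 6.05 and 6.01 in the young samples. Every old sample was more than 1 log2 unit above every young sample. The means were 7.38 ± 0.068 in the old and 6.07 ± 0.070 in the young samples (SD, n = 3 each), which is 1.31 apart (limma adjusted p = 3.1e-05, standard error 0.07) or a fold of 2.48. The other Klf4 probe set (1417395_at), designed from the same source sequence, read 7.11, 7.43 and 7.10 in the old samples, against 6.00, 6.11 and 5.83 in the young samples. Its log2 fold change was 1.23 (limma adjusted p = 3.7e-04, standard error 0.11), so both probe sets of the gene rose and neither had overlapping groups.

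Klf2, which keeps the endothelium quiescent under flow and restrains the activation of T cells, read 7.35, 7.50 and 7.33 in the old samples, against 6.32, 6.20 and 6.12 in the young samples. The groups were again far from overlapping. The means were 7.40 ± 0.094 in the old and 6.21 ± 0.10 in the young samples (SD, n = 3 each), which is 1.18 apart (limma adjusted p = 1.0e-04, standard error 0.08) or a fold of 2.27. Leaving out each array in turn gave 1.13 to 1.24 for Klf2 and 1.28 to 1.35 for the brightest probe set of Klf4, called each time.

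**Figure D1:**
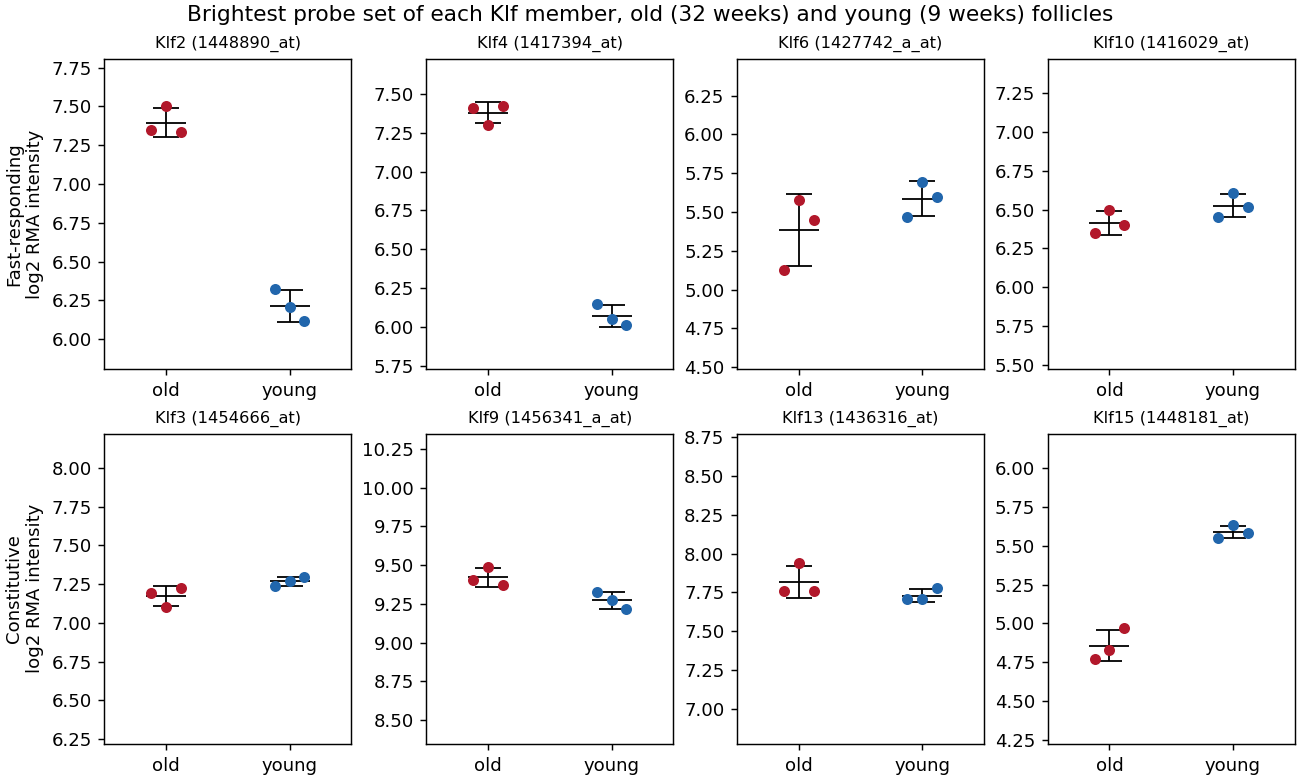
Log2 RMA intensity of the brightest probe set of each Klf member (vertical axis, each panel 2 log2 units high), with 1 point per array, a bar at the mean and whiskers of 1 SD, old samples in red and young samples in blue. The old samples of Klf2 and Klf4 lie about 1.2 to 1.3 log2 units above the young samples, those of Klf15 lie 0.73 below, and the other 5 genes differ by 0.2 or less.

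Klf6, an early gene of wounding and cell stress, gave different answers at its different probe sets. At the brightest (1427742_a_at) it read 5.13, 5.58 and 5.45 in the old samples, against 5.47, 5.69 and 5.60 in the young samples. These groups overlapped, and the log2 fold change was -0.20 (95% interval -0.48 to 0.08, adjusted p = 0.27 from limma). At 1418280_at, the old samples read 5.52, 5.56 and 5.63, against 4.89, 4.91 and 4.89 in the young samples, a difference of 0.68 (limma adjusted p = 3.2e-04, standard error 0.06) or a fold of 1.60. Here the old samples all lay above the young samples, but under the fold of 2. The probe set 1447448_s_at read 5.61, 5.87 and 5.51 in the old samples, against 4.96, 5.18 and 4.92 in the young samples (0.65, standard error 0.11, adjusted p = 0.0056), and 1433508_at read 5.14, 5.53 and 5.22, against 4.77, 4.74 and 4.80 (0.53, standard error 0.10, adjusted p = 0.0093). All 3 of these probe sets were thus higher with an adjusted p no greater than 0.05, as were 8.95% of all probe sets. Their old samples lay above the young without overlap, as in 17.6% of all probe sets. The adjusted p of the 3 reached 0.034 at most when single arrays were left out. The dimmest, 1459718_x_at, which comes from the same source sequence as 1447448_s_at, read 2.23, 2.04 and 1.89 in the old samples and 1.94, 1.95 and 1.96 in the young samples, below the lower quartile of 3.41 over all probe set means.

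The disagreement between the Klf6 probe sets differed between the old and the young samples. The value of 1418280_at minus that of 1427742_a_at was 0.40, -0.02 and 0.18 in the old samples, against -0.58, -0.78 and -0.71 in the young samples, a shift of 0.88 (exact two-sided permutation test, p = 0.1). For 1447448_s_at the shift was 0.85 and for 1433508_at 0.73, each with p = 0.1 in the exact permutation test, below which 3 samples against 3 cannot go. These were 3 of 4 such differences computed, chosen after the values had been seen, and all 4 had this same smallest p. Each dimmer probe set was taken because it passed the adjusted p, while the brightest of its gene did not. Some separation of the ages was thus built into the choice, and these p-values are not a test of the shift. With its probe sets averaged into 1 value, Klf6 was at 0.35 (adjusted p = 0.0085 from limma), the opposite sign to its brightest probe set. On the same arrays the 3' minus 5' control values differed between the ages, with 1.51 ± 0.0048 in the old and 0.47 ± 0.014 in the young samples for Gapdh (SD, n = 3 each) and 2.53 ± 0.050 against 1.48 ± 0.033 for beta-actin. The mean of the poly-A spike-in controls Dap, Lys, Phe and Thr differed the same way, with 4.08 ± 0.10 in the old and 3.33 ± 0.076 in the young samples, and each of these 3 differences had p = 0.1 in the exact permutation test. Where the Klf6 probe sets lie along the transcript was not analysed here, and the part of these control values in the disagreement, or in the Klf2, Klf4 and Klf15 differences, was not tested.

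**Figure D2:**
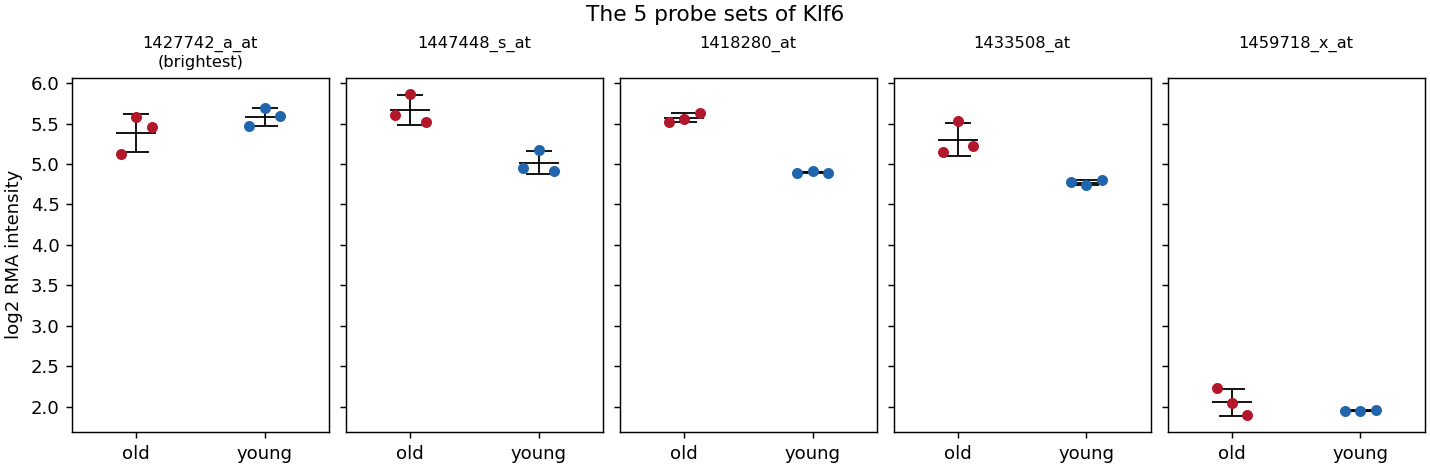
Log2 RMA intensity (vertical axis) of the 5 Klf6 probe sets, with 1 point per array, a bar at the mean and whiskers of 1 SD, old samples in red and young samples in blue. In 1447448_s_at, 1418280_at and 1433508_at the old samples lie above all young samples, by 0.65, 0.68 and 0.53 on average, while in 1427742_a_at they overlap, and levels are to be compared only within a probe set.

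Klf10, induced early by transforming growth factor beta, was the fast-responding member with the least difference. Its single probe set (1416029_at) read 6.35, 6.50 and 6.40 in the old samples, against 6.46, 6.60 and 6.52 in the young samples. The groups overlapped, and the log2 fold change was -0.11, with a 95% interval of -0.27 to 0.05 (adjusted p = 0.29 from limma), which leaves out a fold of 2 either way.

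Among the constitutive members, Klf15 was lower in the old samples, under the fold of 2. Klf15, which drives amino acid breakdown and glucose production in liver and muscle and is induced by glucocorticoid, read 4.77, 4.83 and 4.97 in the old samples, against 5.55, 5.63 and 5.58 in the young samples. All old samples lay below all young samples. The means were 4.86 ± 0.10 in the old and 5.59 ± 0.041 in the young samples (SD, n = 3 each), which is -0.73 apart (limma adjusted p = 5.1e-04, standard error 0.07), and the adjusted p stayed between 0.0014 and 0.0035 without any single array. At this adjusted p alone, whatever the fold, 12.4% of all genes were lower and 9.34% higher by their brightest probe set.

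Klf3, Klf13 and Klf9 did not pass at their brightest probe sets. Klf3, a repressor of erythroid and fat cell genes, read 7.19, 7.10 and 7.22 in the old samples, against 7.24, 7.27 and 7.29 in the young samples (-0.095, 95% interval -0.24 to 0.046, adjusted p = 0.31 from limma). The old samples were all just below the young, as were 23.7% of all genes, and 42.5% of all genes had groups that did not overlap. Klf13, a factor of lymphocyte gene expression, read 7.76, 7.94 and 7.76 in the old samples, against 7.71, 7.70 and 7.78 in the young samples (0.087, 95% interval -0.077 to 0.25, adjusted p = 0.42). Klf9, a target of thyroid hormone and glucocorticoid and a partner of the progesterone receptor in the uterus, read 9.41, 9.49 and 9.37 in the old samples, against 9.33, 9.28 and 9.22 in the young samples (0.15, 95% interval 0.0009 to 0.29, adjusted p = 0.14). Klf9 was separated between the ages by less than 0.05, with the old samples above the young, as in 18.9% of all genes. Each of these 95% intervals left out a fold of 1.5.

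The dimmer probe sets of the constitutive genes were mostly within 0.25 of 0, and 3 of them were lower with an adjusted p no greater than 0.05. For Klf9, 1436763_a_at read 5.40, 5.41 and 5.33 in the old samples, against 5.88, 5.72 and 5.74 in the young samples (-0.40, standard error 0.07, adjusted p = 0.0051 from limma). The difference between 1436763_a_at and the brightest Klf9 probe set shifted by -0.55 between the ages (exact permutation test, p = 0.1). This pair was chosen in the same way as those of Klf6, so its p-value is not a test of the shift. Also for Klf9, 1422264_s_at was at -0.47 (adjusted p = 0.0095), at mean levels of 2.19 in the old and 2.66 in the young samples, which are below the lower quartile of 3.41. For Klf3, 1421604_a_at read 4.21, 4.21 and 3.69 in the old samples, against 4.74, 4.56 and 4.41 in the young samples. Old replicate 3 was the lowest, and the log2 fold change of -0.53 (adjusted p = 0.042) had an adjusted p of 0.066 without old replicate 3, 0.13 without young replicate 1, 0.094 without young replicate 2 and 0.054 without young replicate 3. Of the other dimmer Klf3 probe sets, 1429360_at was at 0.12, 1431630_a_at at 0.04, 1441200_at at 0.07, 1442920_at at 0.22 and 1458487_at at -0.13. Of those of Klf9, 1428289_at was at -0.01, 1428288_at at -0.10, 1436952_at at 0.13 and 1452723_at at -0.12, and of those of Klf13, 1432543_a_at was at -0.07 and 1456030_at at -0.11. None of these had an adjusted p under 0.05 over all arrays, and 1442920_at had 0.0488 without old replicate 1. Over all probe sets that are not the brightest of their gene, 2595 of 16764 were lower and 1431 higher at this adjusted p, against 3 and 4 of the 19 dimmer member probe sets.

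**Figure D3:**
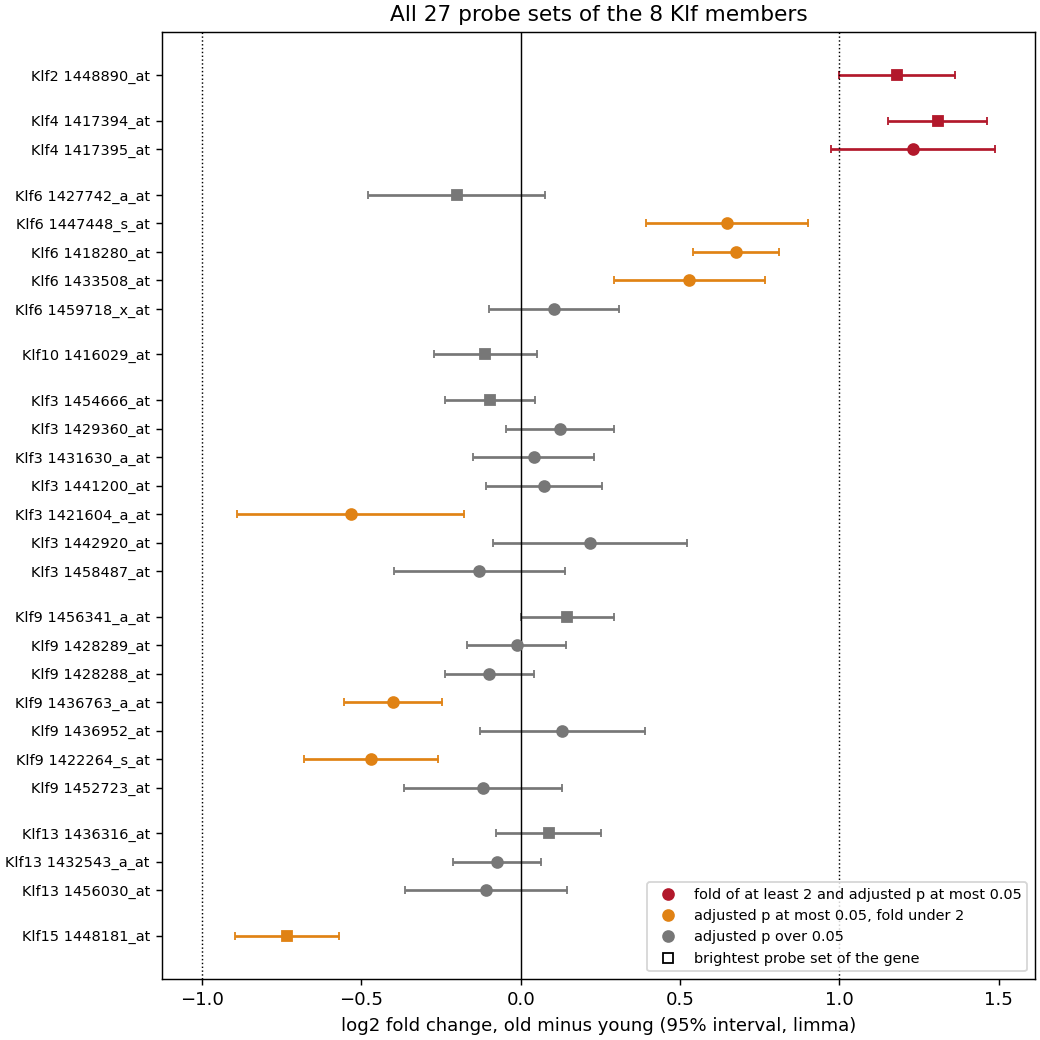
Log2 fold change, old minus young, with its 95% interval from limma (horizontal axis) for all 27 member probe sets, grouped by gene with the fast-responding genes at the top, with squares for the brightest probe set of a gene, red for called probe sets, orange for an adjusted p no greater than 0.05 with a fold under 2, and dotted lines at a fold of 2. The 3 probe sets of Klf2 and Klf4 lie beyond 1, the 3 orange Klf6 probe sets lie between 0.53 and 0.68, and the 4 orange probe sets of Klf3, Klf9 and Klf15 lie between -0.40 and -0.73.

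Set side by side at the brightest probe sets, both classes split within themselves, Klf2 and Klf4 lying apart from Klf6 and Klf10, and Klf15 apart from Klf3, Klf9 and Klf13. The median log2 fold change over the brightest probe sets was 0.54 for Klf2, Klf4, Klf6 and Klf10 and -0.0038 for Klf3, Klf9, Klf13 and Klf15, against -0.0042 over all 18194 genes. The difference of the class medians was 0.54, 0.85 with the probe sets of a gene averaged and 0.24 with Klf9 counted as fast-responding, and it is a description of 8 chosen genes with no test. Measured from the mean of the young samples, the mean of the 4 fast-responding genes was 0.46, 0.62 and 0.55 in the old samples, against -0.0002, 0.039 and -0.039 in the young samples. For the 4 constitutive genes it was -0.18, -0.13 and -0.13 in the old samples, against -0.0084, 0.0055 and 0.003 in the young samples. The fast-responding mean was thus carried by Klf2 and Klf4, and the constitutive mean by Klf15. Of the 27 member probe sets, 13 had groups that did not overlap, 7 with the old samples above and 6 with the old samples below, where 41.3% of all probe sets did not overlap, 17.6% with the old samples above and 23.7% below.

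None of the other Klf and Sp genes reached a fold of 2 between old and young samples. Of 18 other Klf and Sp genes listed, 15 were measured, and limma and SAM called none of them, and the raw p was under 0.05 for 3 higher and 3 lower genes, close to the share over all 18194 genes, of which 2920 were higher and 3513 lower at that p. At the adjusted p alone, 3 were lower. These were Sp3 (-0.45, adjusted p = 0.0026 from limma), a GC box factor that competes with Sp1, Klf11 (-0.27, adjusted p = 0.024), the closest relative of Klf10, and Sp1 (-0.24, adjusted p = 0.044). The remaining 12 ran from -0.12 for Klf1, the erythroid factor, to 0.34 for Sp5, a Wnt target, with Klf5, Klf7, Klf16, Sp4, Sp7 and Sp8 within 0.03 of 0 and Klf12, Klf14, Klf17 and Sp6 between 0.17 and 0.23. The median of the 15 genes was 0.023. Among their dimmer probe sets, 1 of Klf5 was at 0.54 (limma adjusted p = 0.0080) with the old samples above the young, 1 of Klf17 was at -0.27 (adjusted p = 0.023), opposite in sign to its brightest probe set, and 1 of Klf7 was at -0.20 (adjusted p = 0.049). That of Klf5 had means of 3.15 in the old and 2.62 in the young samples, below the lower quartile of 3.41 over all probe set means.

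Some other immediate-early genes rose further than Klf2 and Klf4 in the same samples, while 35 of 46 were not called. Of 46 such genes measured, 11 were called higher and 0 lower by limma and by SAM, and the raw p was under 0.05 for 23 higher and 5 lower genes. Of all 18194 genes, limma called 0.638% higher and 0.126% lower, and 2920 were higher and 3513 lower at that raw p. The called genes of the list were led by Fosb (5.27), Jun (3.59), Fos (3.33), Ccn1 (2.87), Egr1 (2.79) and Junb (2.28), and the smallest change among them was 1.53, for the nuclear receptor Nr4a1. The fold changes of Klf4 and Klf2, 1.31 and 1.18, were below those of all 11. The median of the whole list was 0.17. Dusp1, a phosphatase that switches MAP kinases off, was at 0.60 (limma adjusted p = 7.6e-04), and Myc at -0.38 (limma adjusted p = 0.0050), both under the fold of 2.

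**Figure D4:**
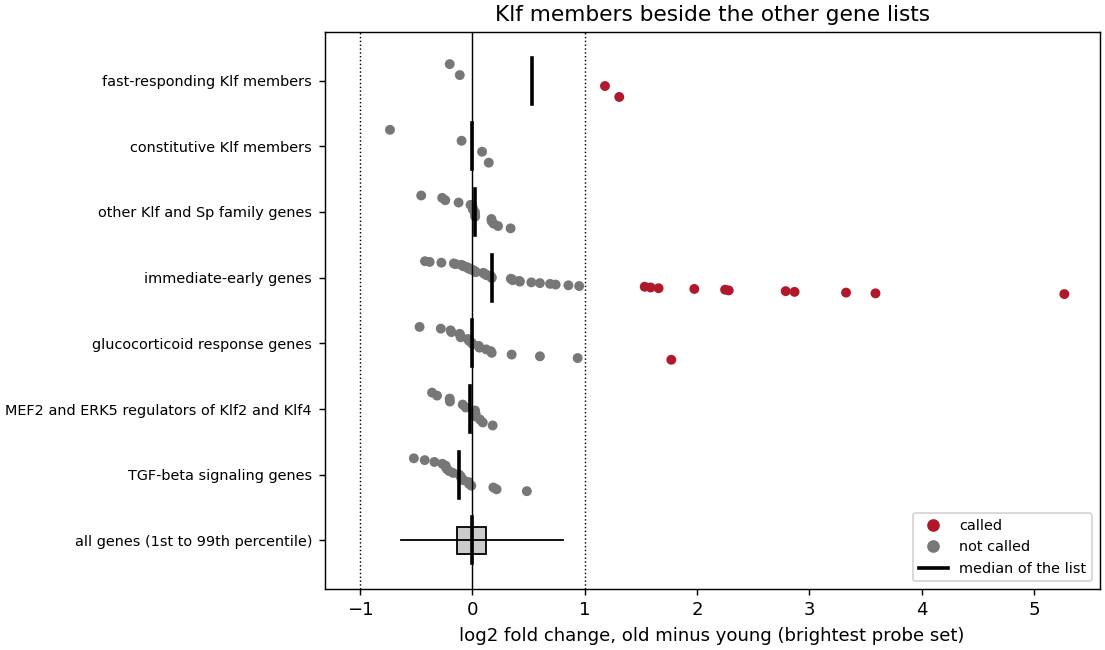
Log2 fold change, old minus young, at the brightest probe set of each gene (horizontal axis) for the Klf classes and 5 other gene lists, with called genes in red, a bar at each median, and for all genes a box of the quartiles with a line from the 1st to the 99th percentile. Klf2 and Klf4 lie at 1.18 and 1.31, left of the 11 called immediate-early genes, and none of the other Klf and Sp genes passes a fold of 2.

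The genes known to act on these factors, or to respond with them, were mostly not called, but only 0.764% of all 18194 genes were. With the raw p under 0.05 in limma, 2920 of all genes were higher and 3513 lower. At the adjusted p alone, 9.34% of all genes were higher and 12.4% lower. Of 12 genes of the MEF2 and ERK5 pathway, which governs Klf2 and Klf4 in endothelial cells and here includes the deacetylases that repress MEF2, limma and SAM called none, and the raw p was under 0.05 for 1 higher and 3 lower genes. The ERK5 target Mef2a (-0.31, adjusted p = 0.012) and the deacetylase Hdac4 (-0.36, adjusted p = 0.010) were lower at the adjusted p alone. Of 11 endothelial targets of Klf2 and Klf4 measured, none was called by limma or SAM, and the raw p was under 0.05 for 4 higher genes and 1 lower gene. The target Eng was at 0.36 (adjusted p = 0.0059), whereas Thbd, the gene of thrombomodulin, was at -0.57 (adjusted p = 0.0087). Of 20 glucocorticoid response genes, 1 was called higher, the metallothionein gene Mt2 (1.77, adjusted p = 7.8e-06 from limma). At the adjusted p alone 4 were higher and 2 lower, with Mt1 at 0.94, Dusp1 at 0.60 and Nfkbia at 0.35 beside Mt2, and Zbtb16 at -0.47 and Tsc22d3 at -0.28, and the median of the list was -0.0015. Fkbp5 and Per1 were at -0.11 and 0.17 and passed neither threshold.

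Of 19 genes of transforming growth factor beta signaling, which induces Klf10, none was called by limma or SAM, and the median was -0.11. The raw p was under 0.05 for 3 higher and 9 lower genes, beside 2920 and 3513 of all 18194 genes. The repressor Tgif1 (-0.52, adjusted p = 0.0026) and the ubiquitin ligase Smurf2 (-0.42, adjusted p = 0.0028) had the smallest p. Of 15 co-repressors, co-activators and ubiquitin ligases of Klf proteins, neither limma nor SAM called any, and the raw p was under 0.05 for 1 higher and 5 lower genes. The smallest p were those of the ubiquitin ligase adaptor Btrc (-0.34, adjusted p = 0.010) and the co-activator Crebbp (-0.27, adjusted p = 0.013), both under the fold of 2. Of 14 steroid and cholesterol genes measured, Star (1.87), which brings cholesterol into mitochondria, and Cyp11a1 (1.34), which makes pregnenolone from it, were called higher and none was called lower.

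Over the 6 arrays, the genes whose values followed Klf4 most closely were Cacul1, Gbp2 and Gbp3, with Pearson's r of 0.9991, 0.9989 and 0.9989, and those nearest Klf2 were Nr4a2, Nupr1 and Mgp, with 0.9994, 0.9990 and 0.9988. Their log2 fold changes were 0.27, 2.39 and 2.90 beside Klf4 and 0.53, 0.60 and 1.05 beside Klf2. With 6 arrays in 2 groups that stand apart, 100 genes had r above 0.99 with Klf4 and 117 with Klf2, and no further order among them can be read from so few arrays.

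Markers of other cell types differed in the same samples as Klf2 and Klf4, and in bulk samples fewer cells of a type and less RNA per cell cannot be told apart. With an adjusted p no greater than 0.05, 9.34% of all genes were higher and 12.4% lower by their brightest probe set. At that adjusted p, 10 of 15 macrophage and dendritic cell markers were higher and 1 lower, with a mean log2 level of the list between 5.40 and 5.45 in the old and between 4.84 and 4.88 in the young samples. Of these, 2 were higher by a fold of 2 or more, Ctss (1.36) and Mpeg1 (1.30), where 0.638% of all genes were called higher. Of 9 surface epithelium markers, 8 were higher, 4 of them (Krt7, Krt19, Upk3b and Upk1b) by a fold of 2 or more, and 1 lower, with mean levels of 6.80 to 6.89 in the old and 5.98 to 6.14 in the young samples. Of 12 endothelial markers, the cells in which Klf2 is best known, 6 were higher and 1 lower, none by a fold of 2, with mean levels of 5.11 to 5.14 in the old and 4.92 to 4.95 in the young samples, with Esam at 0.57 and Cldn5 at 0.53 (limma adjusted p = 0.0026 and 0.0028) and Emcn at -0.50 the lower one. Pecam1, Cdh5, Tek, Tie1 and Vwf passed neither threshold, and Pecam1 was near the lower quartile of 3.41 at means of 3.27 in the old and 3.49 in the young samples. Of 9 smooth muscle markers 6 were higher, of 3 erythrocyte markers 2 were higher, of 10 theca and stroma markers 4 were higher and 2 lower, and of 10 lymphocyte markers 1 was higher and 1 lower. By a fold of 2 or more, Tagln (1.06) was higher among the smooth muscle markers and Star (1.87) among those of theca and stroma. No erythrocyte, lymphocyte, oocyte or granulosa marker was called. Of the 2 erythrocyte markers that were higher, 1 had means of 3.36 in the old and 2.97 in the young samples, below the lower quartile of 3.41. Of 16 oocyte markers, 11 were lower and none higher, and of 12 granulosa markers 3 were lower and none higher, with mean levels of 10.08 to 10.11 in the old and 10.37 to 10.40 in the young samples for oocytes and 10.59 to 10.64 against 10.71 to 10.75 for granulosa cells. The part of these cell types in the Klf2, Klf4, Klf6 and Klf15 values was not tested.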

How the data were processed

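RNA of mouse ovarian secondary follicles was measured on 6 Affymetrix arrays, 3 old and 3 young. The authors normalized the scans with RMA (no version is stated) and deposited intensity values on a linear scale, from 2.62 to 13880. Log2 of these was used with no pseudocount. Of 45101 probe sets, 34958 had 1 gene symbol in the array's annotation, 932 had several symbols and 9211 were not listed. Symbols were updated by gene ID through RefSeq (18033 of 18195 matched). Old and young samples were compared with limma 3.58.1 in R 4.3.3 (lmFit, eBayes, Benjamini-Hochberg over 34958 probe sets). Calls needed a fold of 2 or more with an adjusted p no greater than 0.05. Arrays have no depth, and 3 per group limit the precision.

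Gene lists were written from general knowledge and described by counts and medians, with no set test. The named genes were all members and all other Klf and Sp genes, up to 6 called genes per list or, with none called, 2 with the smallest p, and the 3 genes most like each called member. Exceptions were the oocyte, granulosa, lymphocyte and erythrocyte lists, which had no called gene and from which none was named. Nr4a1, Dusp1, Myc, Mt1, Nfkbia, Zbtb16, Tsc22d3, Fkbp5, Per1, Emcn, Pecam1, Cdh5, Tek, Tie1 and Vwf were named outside this rule, after their values were seen. Members, classes and lists were chosen with earlier results of these data known. On simulated data from 34958 probe sets, limma recovered 98 of 100 changed by 1.5 and 99 of 100 changed by 3 on the log2 scale, with 0 false calls. The alternatives were SAM (with all 20 label assignments), other probe set rules, a dim filter at log2 5, other normalizations, priors and weights, other fold minimums, Klf9 in the other class, a replicate block, and fits without each array in turn.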

Additional observations from a re-analysis of the deposited data

How the results depend on the processing

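Klf2 and both probe sets of Klf4 stayed called, and Klf15 stayed at a fold under 2, under SAM, other normalizations, priors, weights and without each array in turn. With a fold of at least 1.5, probe sets called were 638 higher and 950 lower, with 5 higher and 1 lower among the members, and with no fold minimum 3130 and 4842, with 6 and 4 among the members. Klf15 (-0.73) was then called lower, 1 gene by its brightest probe set, in both settings. With the probe sets of a gene averaged, 98 genes were higher and 13 lower, Klf6 was at 0.35, Klf9 at -0.12 and Klf13 at -0.032, each with the opposite sign to its brightest probe set, and the difference of the class medians was 0.85. It was 0.24 with Klf9 counted as fast-responding and 0.49 to 0.56 without each array. With 1 probe set per gene in the fit, 23 were lower. Weak values that changed sign were Klf9 1428289_at, at 0.047 after quantile or cyclic loess normalization, 0.0075 with array weights and -0.046 to 0.027 without each array, and without single arrays Klf3 1431630_a_at (-0.027 to 0.11), 1441200_at (-0.0004 to 0.13) and 1458487_at (-0.20 to 0.0045). The causes were not tested. Samples shared only a replicate number, and same-numbered arrays correlated at 0.065, 0.014 and 0.043 in their deviations. The replicate block gave 164 higher and 194 lower probe sets, with 3 and 0 among the members, and Klf2 and Klf4 at the same 1.18 and 1.31. Without each array, 166 to 177 probe sets were higher and 185 to 208 lower. No detection calls were used, so how far dim probe sets such as 1459718_x_at stand above background is not known. Klf9 at its brightest probe set passed the adjusted p alone after quantile (0.0425) and cyclic loess (0.0404) normalization and with a trended, robust prior (0.0288).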
